A study of Rattus norvegicus with 12 samples.

Results

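Hox genes are the homeobox transcription factors of the 4 clusters a to d, and 31 of them were read in rat urinary bladder, among 18166 genes measured under a single gene symbol. They were taken as the probe sets whose platform symbol is Hox, a cluster letter from a to d and a number, with nothing after it. Cluster a gave 8 genes, cluster b 10, cluster c 7 and cluster d 6. Each had 1 probe set, and 0 Hox probe sets carried several symbols. RefSeq lists 39 protein-coding genes under that form of name in assembly GRCr8, and the other 8 were not analysed here. For Hoxa2, Hoxa4 and Hoxa10 the platform's gene identifier was not found in that table, and they keep the platform's symbol. RefSeq also gives Hoxa10 as an older name of Hoxa11, so the gene behind that symbol is less certain than the others.

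Bladders were those of Sprague Dawley rats, all female and about 3 months old. The 6 sham samples are from rats that had surgery alone, and the 6 denervated samples from rats whose ganglia were also frozen on both sides, collected 10 days after denervation. No transgene, allele or drug is listed for either group, and the time of collection is given for the denervated group only. The comparison asks which transcripts of the bladder change when it loses its innervation. The labels describe the tissue as over 95% smooth muscle, and the smooth muscle genes Myh11 (13.14), Des (13.08) and Actg2 (12.91) had high sham means on the log2 scale, but so had the urothelial genes Upk1a (12.72) and Upk2 (12.63), so the RNA also held a clear urothelial signal. Labels do not say outright that each array is a separate animal, and p-values measure the spread between these samples.

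Hox genes lie in each cluster in the order in which they are used along the body axis, from low numbers at the head end to high numbers at the tail end, and genes with the same number in different clusters, called paralogs, arose by duplication of one ancestral cluster. Adult connective tissue and smooth muscle keep much of the Hox pattern laid down in the embryo, as a record of position. Genes numbered 9 to 13 serve the trunk's end, limbs and urogenital tract, and Hoxa13 and Hoxd13 are required for the normal development of the hindgut, bladder outlet and genitalia. Hox proteins bind DNA with TALE homeodomain partners of the Pbx, Meis and Pknox families, Polycomb proteins keep silent Hox genes off, Trithorax proteins keep active ones on, and retinoic acid sets their limits in the embryo.

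The genes called in cluster a, all with high numbers, and those called in cluster c changed in opposite directions. In cluster a, Hoxa7, Hoxa9, Hoxa10 and Hoxa13 were all lower after denervation, whereas Hoxa2, Hoxa4, Hoxa5 and Hoxa6 were not called. In cluster c, Hoxc4, Hoxc8 and Hoxc9 were higher, with Hoxc8 the largest change of all 31 genes at 2.25-fold, and 0 of 7 were lower. Hoxc5, Hoxc10, Hoxc12 and Hoxc13 were not called, and all 7 had sham means below the array medians. Of all genes that dim, 7.96% were called higher and only 3.7% lower, so 0 of 7 lower is near the share of such genes. Hoxc4 and Hoxc9 were not called by an exact rank-sum test, whereas Hoxc8 was. In cluster d, Hoxd10 and Hoxd13 were lower, and in cluster b, Hoxb2 and Hoxb8 were lower and Hoxb3 higher. A gene is called here when its adjusted p is under 0.05 in a limma fit of denervated against sham arrays (6 per group) whose p-values were adjusted over the 18166 genes by the Benjamini-Hochberg method, and "rose" and "fell" refer to that. Of the 31 Hox genes 12 were called (38.7%), 8 of them lower and 4 higher (25.8% and 12.9%). Over all genes 28.7% were called, 16.9% lower and 11.9% higher, so the share of Hox genes that rose was near that of all genes and the share that fell was above it; the difference in share was not tested. The median change over the 31 genes was -0.05 on the log2 scale, against -0.04 over all genes, and 12 were positive and 19 negative. A shift of the Hox genes as a whole was not tested.

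**Figure D1:**
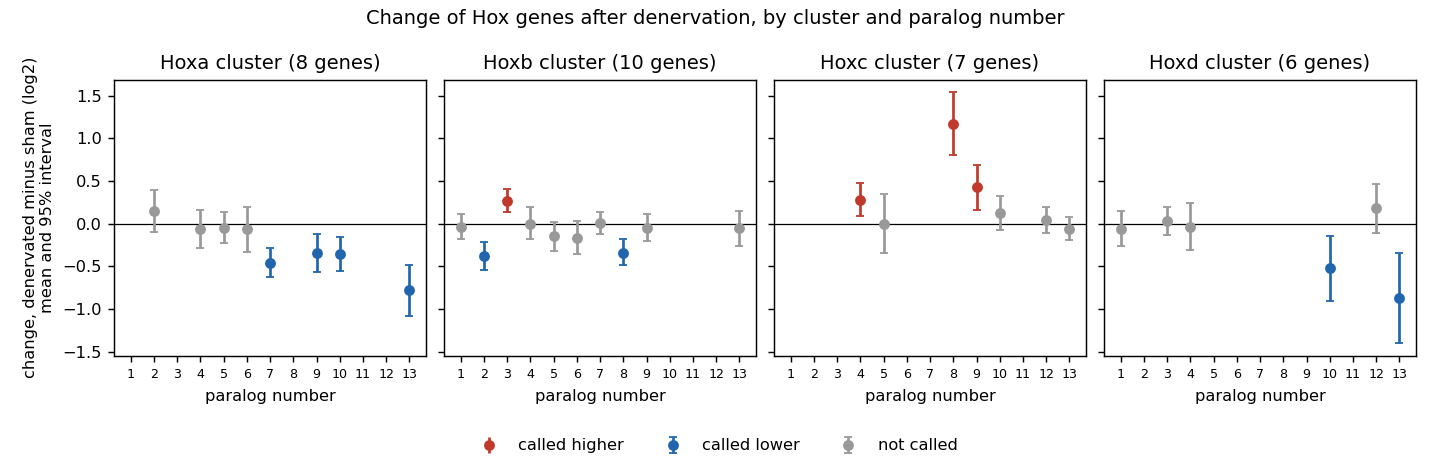
Change of each of the 31 Hox genes after denervation, in 1 panel per cluster with the paralog number on the x axis and the log2 difference of the group means (denervated minus sham, 6 arrays per group) with its 95% interval on the y axis. Red and blue points are genes called higher and lower and grey points were not called. In cluster a the 4 genes numbered 7 to 13 lie between -0.78 and -0.35, and in cluster c the highest point is Hoxc8 at 1.17.

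Upstream sequences were looked at because neighbouring genes of cluster a fell together and Hoxc4 rose. RefSeq's promoter table for GRCr8 holds 16 start sites of 15 of the 31 genes, each with 250 bases before the start and 50 after. Hoxa13 (chr4:82691702-82691951, minus strand) and Hoxa7 (chr4:82648242-82648491, minus strand) fell, and Hoxc4 (chr7:136048809-136049058, plus strand) is the member that rose and has an entry. The 250 bases before each start are shown 5′ to 3′ with every CpG pair in capitals.
Hoxa13: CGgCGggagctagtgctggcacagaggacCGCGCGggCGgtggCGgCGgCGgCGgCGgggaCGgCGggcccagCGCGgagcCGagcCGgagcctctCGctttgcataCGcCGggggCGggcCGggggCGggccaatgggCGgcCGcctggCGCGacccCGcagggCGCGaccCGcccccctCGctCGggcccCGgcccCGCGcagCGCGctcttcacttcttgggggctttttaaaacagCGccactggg
Hoxa7: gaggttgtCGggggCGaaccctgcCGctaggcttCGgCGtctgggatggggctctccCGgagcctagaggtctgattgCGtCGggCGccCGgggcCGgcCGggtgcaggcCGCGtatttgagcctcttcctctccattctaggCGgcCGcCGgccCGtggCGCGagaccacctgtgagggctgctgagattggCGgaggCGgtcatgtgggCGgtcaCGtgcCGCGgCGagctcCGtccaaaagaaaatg
Hoxc4: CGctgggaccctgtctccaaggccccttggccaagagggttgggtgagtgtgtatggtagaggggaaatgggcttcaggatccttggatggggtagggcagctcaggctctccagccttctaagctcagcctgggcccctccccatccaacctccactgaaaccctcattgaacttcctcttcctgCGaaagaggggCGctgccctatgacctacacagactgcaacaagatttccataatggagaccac

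The upstream stretch of Hoxa13 holds 39 CpG pairs and that of Hoxa7 28, and that of Hoxc4 holds 3. Hoxa13 and Hoxc4 hold the most and the fewest of the 16 stretches, and 1 risen gene allows no comparison with the direction of change. Hoxa9 (18), the start sites of Hoxa10 (21 and 14), Hoxd10 (21) and Hoxd13 (30), which fell, lie between. So do the genes that were not called, from Hoxa2 and Hoxb1 (6 each) to Hoxa6 (28) and Hoxa4 (32). Over the whole 300-base windows, the ratio of observed to expected CpG was 0.95 for Hoxa13, 0.96 for Hoxa7 and 0.23 for Hoxc4. The median was 0.814 over the 16 Hox windows and 0.392 over all 33469 windows of the table. The 4 motifs below were searched on both strands of the 300-base windows, and a match only says that these letters are there. TGACAG, the core bound by Meis proteins, was in 3 of 16 Hox windows (18.8%) and in 19.0% of all windows, and the Hox windows with it were those of Hoxa2, Hoxa4 and Hoxa13. AGGTCA, the core of retinoic acid receptor sites, was in 3 of 16 (18.8%) against 16.2%, in Hoxc4, Hoxd4 and Hoxd10. TTTATGG, a core of Cdx and posterior Hox proteins, was in 0 of 16 against 3.07%, and TAATTA, a homeodomain core, in 0 of 16 against 5.36%. Neither of the motifs that were found was confined to genes that fell or to genes that rose.

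The clusters differed in how bright they were in sham bladders. Brightness differs between probe sets for technical reasons as well, so it is given against the array medians (5.82 to 5.90 on the log2 scale over the 12 arrays) and no order of transcript amounts is read from it. In cluster a, 7 of 8 probe sets lay above the array median in all 6 sham arrays, with sham means of 5.82 to 9.72. In cluster b this held for 7 of 10 (4.29 to 8.01) and in cluster d for 2 of 6, Hoxd10 and Hoxd13 (4.16 to 7.70). In cluster c it held for 0 of 7, with sham means of 3.69 to 5.61, and 6 of the 7 lay below the median in every sham array. The brightest probe set of each cluster was that of Hoxa13 (9.72 ± 0.13, SD, n = 6), Hoxb2 (8.01 ± 0.08), Hoxd13 (7.70 ± 0.43) and Hoxc9 (5.61 ± 0.18). By paralog number, 4 of 10 genes numbered 1 to 4, 7 of 9 numbered 5 to 8 and 5 of 12 numbered 9 to 13 were above the median in all sham arrays. The table carries no detection call, so a dim probe set cannot be told from background, and the size of a change in cluster c is uncertain for that reason.

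**Figure D2:**
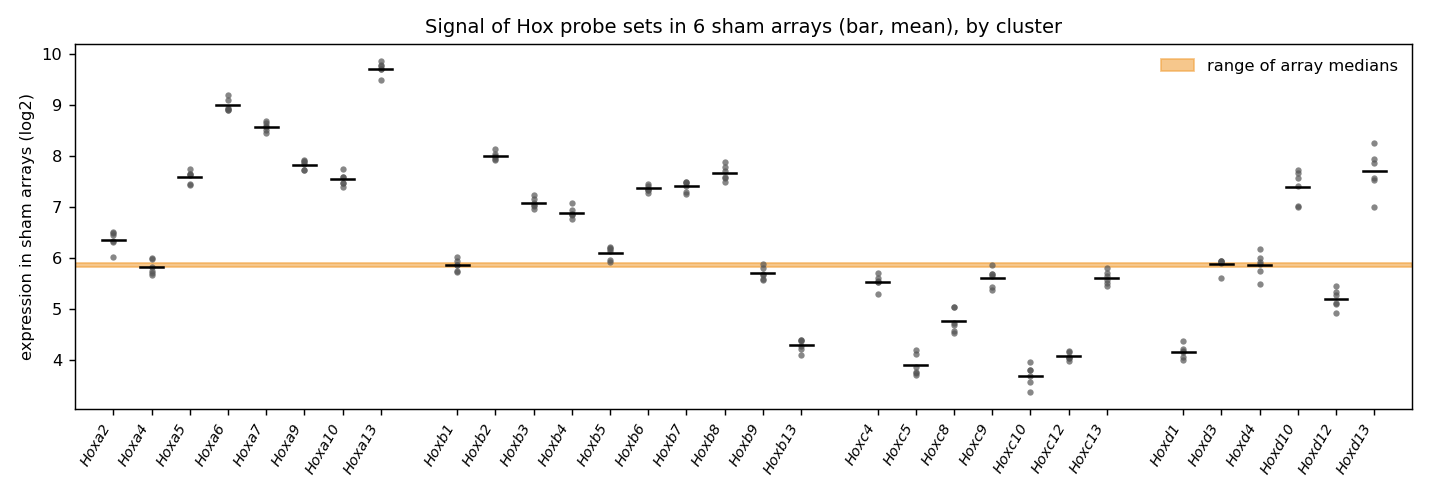
Log2 expression of the 31 Hox probe sets in the 6 sham arrays (points) with their means (bars), by cluster on the x axis, and the range of the array medians as a shaded band. Most cluster a and b points lie above the band at 5.82 to 5.90, and cluster c points lie at or below it.

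All genes that fell were among the 19 Hox probe sets with a sham mean above the mean sham array median of 5.84. Of these 19, 8 fell and 1, Hoxb3, rose (42.1% and 5.26%). Among all 11328 genes that bright, 24.8% were called lower and 14.2% higher. The median change was -0.15 over the 19 Hox genes and -0.07 over all genes that bright. Of the 12 dimmer Hox probe sets 0 fell and 3 rose (25%), against 3.7% and 7.96% of 6838 dimmer genes. Bright genes were thus called lower more often than dim genes throughout the array, and the Hox shares that fell went the same way. The shares that rose did not. Over all genes bright ones rose more often than dim ones (14.2% against 7.96%), and among Hox genes less often (5.26% against 25%).

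Hoxa13, which specifies the hindmost gut, urogenital tract and the digits, fell most in cluster a. Hoxa13 read 9.88, 9.77, 9.72, 9.49, 9.71 and 9.79 in sham replicates 1 to 6 and 9.07, 9.50, 9.08, 8.88, 8.60 and 8.55 in denervated replicates 1 to 6. The sham arrays lay between 9.49 and 9.88, and denervated replicate 2, at 9.5, was the only denervated array within that range. The mean went from 9.72 ± 0.13 to 8.95 ± 0.35 (SD, n = 6 per group), a change of -0.78 ± 0.14 (SE, limma adjusted p = 0.00135) or 1.72-fold lower. The lowest denervated arrays were replicates 5 and 6.

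The antisense transcript Hoxa11-as, a non-coding RNA from the opposite strand beside Hoxa11, lies between Hoxa11 and Hoxa13 in RefSeq's order and is no member of the 31. Hoxa11-as read 7.63, 7.67, 7.71, 7.61, 7.77 and 7.58 in sham replicates 1 to 6 and 7.18, 7.24, 7.07, 6.87, 6.54 and 6.46 in denervated replicates 1 to 6. No denervated array reached the sham range, and again replicates 5 and 6 were lowest. Its change was -0.77 ± 0.13 (limma adjusted p = 0.000806), 1.70-fold lower. Its own probe set was read, taken by the platform's gene symbol.

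Hoxa7 patterns the thoracic region and is also used in blood and epithelium. Hoxa7 read 8.69, 8.60, 8.46, 8.58, 8.65 and 8.52 in sham replicates 1 to 6 and 8.16, 8.43, 8.09, 8.16, 7.94 and 7.98 in denervated replicates 1 to 6. The groups did not overlap, and denervated replicate 2 again lay nearest to sham. The change was -0.46 ± 0.08 (limma adjusted p = 0.00122), 1.37-fold lower.

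Hoxa9, which acts in the lower trunk, oviduct and blood stem cells, and Hoxa10, which acts in the uterus and lower back, are the next genes of the cluster. Hoxa9 read 7.92, 7.90, 7.72, 7.72, 7.88 and 7.84 in sham replicates 1 to 6 and 7.72, 7.71, 7.45, 7.26, 7.12 and 7.66 in denervated replicates 1 to 6. The lowest sham and the highest denervated arrays both round to 7.72 and only just missed each other. The change of Hoxa9 was -0.35 ± 0.10 (limma adjusted p = 0.0245), which missed the threshold when sham replicate 1 (0.0525), sham replicate 2 (0.0517) or denervated replicate 4 (0.0576) was left out. Hoxa10 read 7.47, 7.48, 7.60, 7.39, 7.74 and 7.60 in sham replicates 1 to 6 and 7.36, 7.24, 7.46, 7.04, 6.94 and 7.07 in denervated replicates 1 to 6. Denervated replicate 3, at 7.46, overlapped the sham range, which began at 7.39. Its change was -0.36 ± 0.09 (limma adjusted p = 0.0118), 1.28-fold lower.

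The 4 lower-numbered genes of cluster a were not called and their intervals held 0. Hoxa5, which patterns lung and trachea, had 7.60 ± 0.12 in sham and 7.55 ± 0.16 in denervated arrays (95% interval of the change -0.23 to 0.13). Hoxa6 had 9.00 ± 0.13 and 8.94 ± 0.30 (-0.33 to 0.20). The hindbrain genes Hoxa2 (0.15, -0.10 to 0.39) and Hoxa4 (-0.06, -0.28 to 0.16) were not called either.

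Cluster d resembled cluster a in that its high-numbered, bright genes fell. Hoxd13 acts with Hoxa13 in the hindgut, genital bud and digits. Hoxd13 read 7.86, 7.94, 7.01, 8.26, 7.58 and 7.54 in sham replicates 1 to 6 and 6.79, 7.21, 7.44, 6.80, 5.90 and 6.81 in denervated replicates 1 to 6. Both groups were spread widely, and sham replicate 3, at 7.01, and denervated replicates 2 and 3 made them overlap. The change was -0.87 ± 0.24 (limma adjusted p = 0.0160), 1.83-fold lower and the largest fall of the 31 genes. Hoxd10, which patterns the lumbar region and hind limb, is the other bright gene. Hoxd10 read 7.57, 7.72, 7.02, 7.68, 7.01 and 7.42 in sham replicates 1 to 6 and 6.76, 7.45, 6.99, 6.86, 6.28 and 6.94 in denervated replicates 1 to 6. Denervated replicate 2, at 7.45, lay within the sham range of 7.01 to 7.72. Its change was -0.52 ± 0.18 (limma adjusted p = 0.0437), and leaving out any 1 array but sham replicates 3 and 5 and denervated replicate 2 ended the call, with adjusted p of 0.0576 to 0.0942. Hoxd12 (5.20 in sham, change 0.18), Hoxd4 (-0.04), Hoxd3 (0.03) and Hoxd1 (-0.06) were dim or close to the array median and were not called.

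Cluster b held changes in both directions within neighbours. Hoxb2, a gene of the hindbrain, fell. Hoxb2 read 8.00, 8.04, 7.99, 7.94, 8.15 and 7.92 in sham replicates 1 to 6 and 7.58, 7.76, 7.62, 7.54, 7.40 and 7.87 in denervated replicates 1 to 6. The groups did not overlap, and the change was -0.38 ± 0.08 (limma adjusted p = 0.00317), 1.30-fold lower. Hoxb8, which acts in the trunk and in cells of the blood lineage such as microglia, fell as well. Hoxb8 read 7.57, 7.70, 7.60, 7.88, 7.78 and 7.50 in sham replicates 1 to 6 and 7.37, 7.46, 7.21, 7.34, 7.33 and 7.30 in denervated replicates 1 to 6. Every denervated array lay below every sham array, and the change was -0.34 ± 0.07 (limma adjusted p = 0.00350). Hoxb3, the neighbour of Hoxb2, rose. Hoxb3 read 7.03, 7.23, 7.04, 7.08, 7.16 and 6.97 in sham replicates 1 to 6 and 7.41, 7.40, 7.33, 7.29, 7.42 and 7.23 in denervated replicates 1 to 6. The highest sham and the lowest denervated array both round to 7.23 and did not overlap in the unrounded values. The change was 0.26 ± 0.06 (limma adjusted p = 0.00579), 1.2-fold higher.

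The other 7 genes of cluster b were not called. Hoxb7 (7.41 ± 0.11 and 7.41 ± 0.05) and Hoxb4 (6.89 ± 0.11 and 6.90 ± 0.18) had nearly the same mean in both groups, with 95% intervals of the change from -0.12 to 0.14 and from -0.18 to 0.19. Hoxb6 stood at -0.17 ± 0.09 (limma adjusted p = 0.190). Without denervated replicate 2, which read 7.56 against 7.03 to 7.34 in the other 5, it was called lower, by 0.24 on the log2 scale (limma adjusted p = 0.0154). Hoxb5 stood at -0.15, Hoxb9 at -0.05 and Hoxb1 at -0.04. Hoxb13, the highest-numbered gene of the cluster and a marker of prostate and distal colon, was dim in both groups (4.29 ± 0.11 and 4.23 ± 0.21).

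Cluster c was dim in sham bladders, and 3 of its 7 genes rose, beside 7.96% of all dimmer genes. Hoxc8 patterns the lower thoracic region. Hoxc8 read 4.72, 5.03, 5.03, 4.69, 4.56 and 4.53 in sham replicates 1 to 6 and 6.07, 5.31, 6.52, 5.99, 6.05 and 5.66 in denervated replicates 1 to 6. Denervated replicate 2, at 5.31, was the lowest of its group and still above the highest sham array at 5.03. The mean went from 4.76 ± 0.22 to 5.93 ± 0.41 (SD, n = 6 per group), a change of 1.17 ± 0.17 (limma adjusted p = 0.000409). All 6 sham values lay below the array medians and 2 of the denervated ones too, so the size of the 2.25-fold rise is less certain than its direction.

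Hoxc9, the neighbour of Hoxc8, restricts motor neuron types at thoracic level. Hoxc9 read 5.42, 5.68, 5.87, 5.38, 5.65 and 5.68 in sham replicates 1 to 6 and 6.14, 5.81, 6.12, 6.28, 6.27 and 5.62 in denervated replicates 1 to 6. Denervated replicates 2 and 6 lay within the sham range, which reached 5.87, and the other 4 above it. The change was 0.43 ± 0.12 (limma adjusted p = 0.0185), 1.34-fold higher, and was not called by the exact rank-sum test (adjusted p = 0.116). Hoxc4, at the other end of the cluster, acts in the neck and in lymphocytes. Hoxc4 read 5.60, 5.53, 5.70, 5.52, 5.29 and 5.55 in sham replicates 1 to 6 and 5.60, 5.66, 5.76, 6.04, 5.90 and 5.89 in denervated replicates 1 to 6. Its change was 0.28 ± 0.09 (limma adjusted p = 0.0289). The call ended when any 1 of sham replicates 2, 4 and 5 and denervated replicates 4, 5 and 6 was left out, with adjusted p of 0.05 to 0.0649. Hoxc5 (3.90 in both groups), Hoxc10 (3.69 and 3.81), Hoxc12 (4.07 and 4.11) and Hoxc13 (5.61 and 5.55), a gene of hair and nail, were not called, and their intervals held 0.

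**Figure D3:**
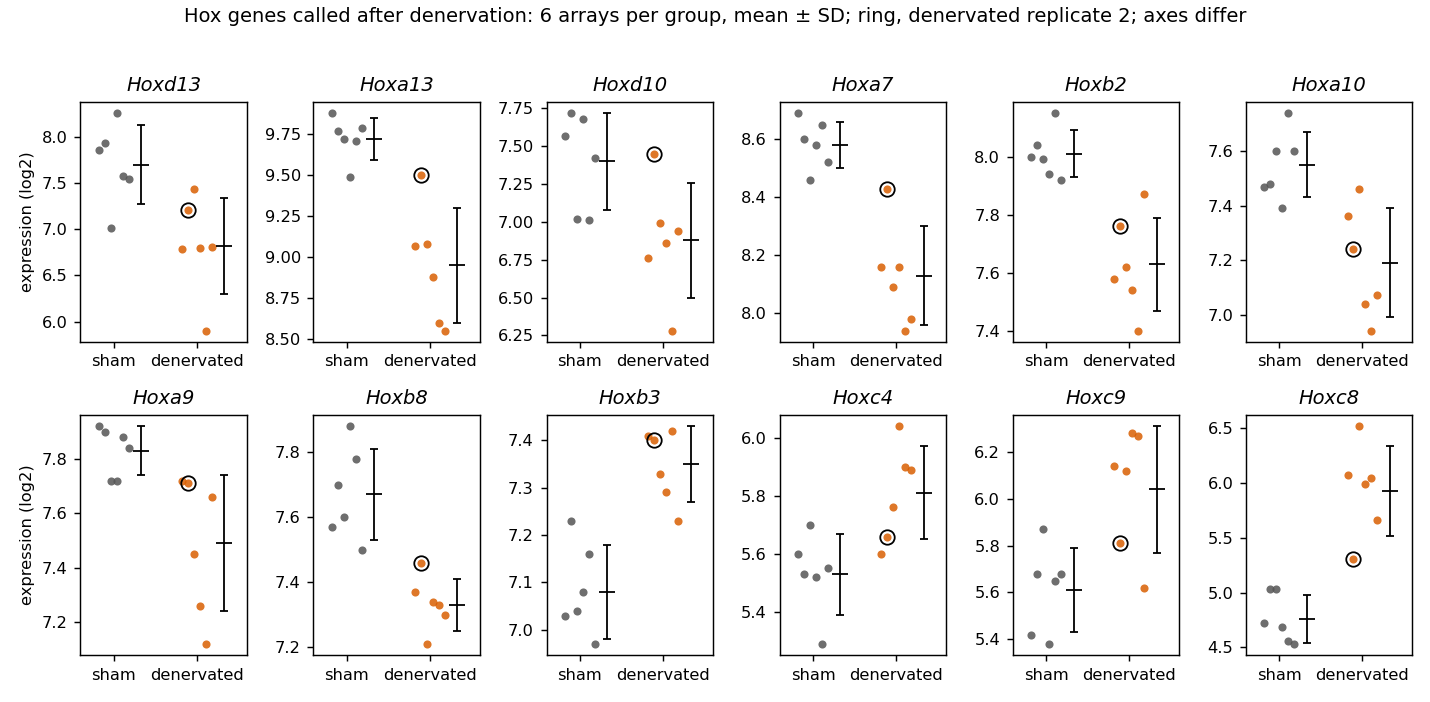
Log2 expression of the 12 Hox genes called, in 6 sham (grey) and 6 denervated (orange) arrays, with the mean ± SD beside each group and a ring around denervated replicate 2; each panel has its own y axis that does not start at 0. Genes are ordered from the most negative change, Hoxd13 (-0.87), to the most positive, Hoxc8 (1.17).

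Separation of the arrays gave a stricter view. For 4 Hox genes every denervated array read lower than every sham array (Hoxa7, Hoxa9, Hoxb2 and Hoxb8, 12.9%), and for 2 every one read higher (Hoxb3 and Hoxc8, 6.45%), 19.4% in both directions. Over all genes the shares were 7.59%, 5.76% and 13.3%.

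Denervated replicate 2 stood apart from its group over all genes: on the first principal component it lay at -5.84, the other denervated arrays at 25.94 to 42.52 and the sham arrays at -30.24 to -22.45. Among the 12 Hox genes called it was the denervated array nearest to the sham mean for 5 (Hoxa13, Hoxa7, Hoxb8, Hoxd10 and Hoxc8), and another array was nearest for 7. Without it 9 Hox genes fell and 4 rose, while the calls over all 18166 genes went from 5216 to 6273. The mean deviation from the sham mean over the 8 genes of cluster a was -0.05 in this array and -0.46 to -0.07 in the other 5, with sham arrays from -0.09 to 0.06. Over cluster c the denervated arrays lay between 0.11 and 0.43, all above the sham arrays (-0.08 to 0.09). Hoxc8 weighs most in the cluster c mean, with a change of 1.17 against 0.43 for the next, Hoxc9. It was the only gene of cluster c whose own groups did not overlap. Over cluster b the denervated arrays lay between -0.15 and 0.00 and over cluster d between -0.49 and -0.06. They overlapped the sham arrays in both, as in cluster a.

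**Figure D4:**
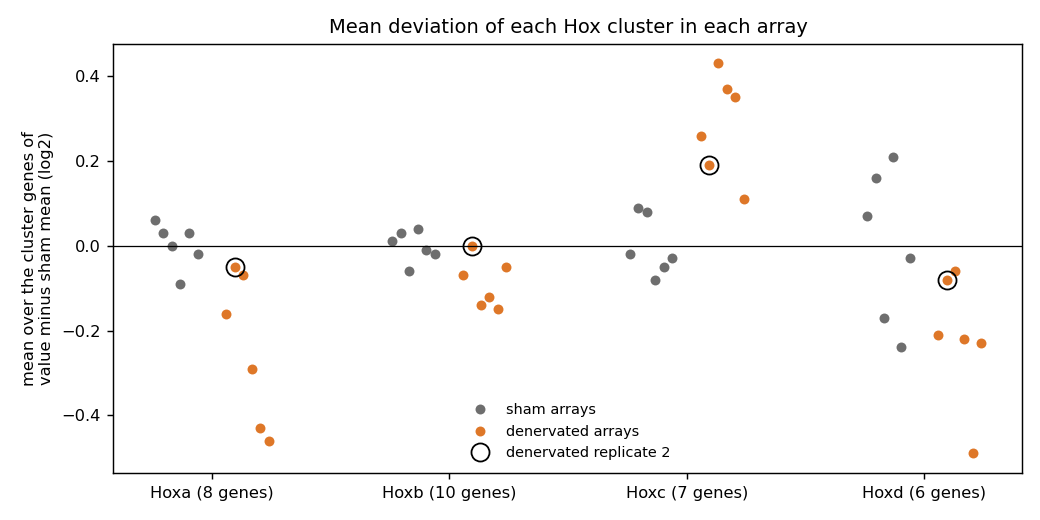
Mean over the genes of each Hox cluster of the log2 value minus that gene's sham mean, for each of the 6 sham (grey) and 6 denervated (orange) arrays, with a ring around denervated replicate 2. Cluster a is lowest in denervated replicates 5 (-0.43) and 6 (-0.46), and in cluster c all denervated arrays lie above the sham arrays. Hoxc8, with a change of 1.17, weighs most in the cluster c mean.

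Paralogs were compared pair by pair. In 28 pairs of genes with the same number, the difference between the paired genes was taken within each array and compared between the groups by an exact two-sided permutation test over the 924 splits of the 12 arrays, whose smallest p is 0.00216, with Benjamini-Hochberg adjustment over the 28 pairs. The pairs share genes, and a shift shows unequal change of the pair, not which gene moved. The changes differed past 0.05 in 9 pairs, but 7 of these held a gene whose sham mean was below the array medians. Such a dim probe set cannot be told from background, so its side of the difference is uncertain and those 7 are read no further.

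In 8 pairs both genes were brighter than the array medians, and 2 of these passed. Hoxa7 minus Hoxb7 was 1.08 to 1.27 in sham arrays and 0.55 to 0.96 in denervated arrays, a shift of -0.46 (exact p = 0.00216, adjusted p = 0.0202). The groups did not overlap, and the pair stayed past the threshold in all 12 cases with an array left out. Hoxa2 minus Hoxb2 was -1.91 to -1.41 and -1.56 to -0.68, a shift of 0.52 (exact p = 0.0108, adjusted p = 0.0379) that stayed past the threshold in 4 of the 12 cases. No difference passed the test between Hoxa13 and Hoxd13, at 0.09 (exact p = 0.719, adjusted p = 0.838), or between Hoxa10 and Hoxd10 (0.16, exact p = 0.472, adjusted p = 0.661); the wide ranges of the cluster d genes leave room for larger differences.

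MicroRNA genes lie inside the clusters too, and miR-196 is known to act on Hox messages, Hoxb8 foremost. The 3 miR-196 genes sit between the number 9 and 10 genes in clusters a and c and between Hoxb9 and Hoxb13 in cluster b. Their mature RNAs share the seed (bases 2 to 8, in capitals), as RefSeq gives them in GRCr8. Their places are chr7:135988900-135988921 (plus strand) for miR-196a, chr4:82661149-82661170 (minus strand) for miR-196b and chr10:81727561-81727582 (plus strand) for miR-196c.
rno-miR-196a-5p: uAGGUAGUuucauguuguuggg
rno-miR-196b-5p: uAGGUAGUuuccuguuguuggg
rno-miR-196c-5p: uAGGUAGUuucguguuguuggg

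The arrays carry probe sets under these gene names, which were picked after their values were seen and which read total RNA and not specifically the mature form. Mir196b, between Hoxa9 and Hoxa10, stood at 5.82 ± 0.14 in sham and 5.45 ± 0.35 in denervated arrays, a change of -0.38 ± 0.14 that was not called (limma adjusted p = 0.0603). Mir196c (6.53 and 6.32, limma adjusted p = 0.133) and Mir196a (3.57 and 3.63, limma adjusted p = 0.804) were not called. Mir10a (-0.16), Mir10b (-0.11) and Mir615 (0.18), the other microRNA genes of the clusters, were not called, and all 3 lay below the array medians in every sham array.

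Among the partners of Hox proteins Meis2 had the largest change. Of 11 measured TALE genes, all brighter than the array medians, 2 fell and 1 rose, near the 16.9% and 11.9% of all genes and the 24.8% and 14.2% of brighter genes. Meis2 went from 10.57 to 10.78 in sham arrays to 9.50 to 10.54 in denervated arrays, with replicate 2 the highest, and no array overlapped. Its change was -0.74 ± 0.15 (limma adjusted p = 0.00286), about the size of that of Hoxa13. Meis1 changed by -0.28 ± 0.09 (limma adjusted p = 0.0376), a call that ended when any 1 of sham replicates 1, 2, 4 and 6 and denervated replicates 4, 5 and 6 was left out (0.0581 to 0.085). Tgif1, a TALE repressor of retinoid and TGF-beta signalling, rose by 0.23 (limma adjusted p = 0.0278), a call that ended without any 1 of sham replicates 4, 5 and 6 and denervated replicates 4 and 5 (0.0515 to 0.065). Not called were Meis3 (-0.19), Pbx2 (0.01), Pbx3 (0.05), Pbx4 (-0.04), Pknox1 (-0.14) and Pknox2 (-0.10). Of 11 measured homeobox relatives outside the clusters 2 rose and 0 fell, beside 11.9% and 16.9% of all genes. Of these 11, 7 were dimmer than the array medians, and 7.96% of all dimmer genes rose and 3.7% fell. The 2 that rose were Meox genes of the somite and vessel wall, Meox1 (0.52 ± 0.12, limma adjusted p = 0.00547) and Meox2 (0.51 ± 0.13, limma adjusted p = 0.0106).

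Regulators of Hox chromatin changed in part. Of 25 measured Polycomb genes, 24 of them brighter than the array medians, 8 fell and 2 rose, with a median of -0.09; of all brighter genes 24.8% were lower and 14.2% higher. Cbx7, the chromobox subunit that reads the repressive histone mark, changed by -0.84 ± 0.16 (limma adjusted p = 0.00161), Scmh1 by -0.44 ± 0.11 (limma adjusted p = 0.00787) and Bmi1, a core subunit of the same complex, by -0.44 ± 0.10 (limma adjusted p = 0.00519). Ezh2, the methyltransferase that writes the mark and is high in dividing cells, rose by 0.61 ± 0.11 (limma adjusted p = 0.00123). Ezh2 read 7.27 to 7.43 in sham arrays, 7.44 in denervated replicate 2 and 7.85 to 8.20 in the 5 remaining ones. Proliferation genes rose in 9 of 10 cases, with a summed signal (log2 of the summed linear values) of 9.93 to 11.03 in sham and 10.37 to 11.95 in denervated arrays, and their part in the rise of Ezh2 was not tested. Of 9 measured Trithorax genes and histone demethylases, all that bright, 2 fell and 1 rose, near those shares. Psip1, a chromatin reader, changed by -0.39 and Ash1l, a histone methyltransferase, by -0.29, a call lost in the exact rank-sum test (adjusted p = 0.0851). Dot1l stood at 0.17 (limma adjusted p = 0.0490), a call lost in 10 of the 12 fits that left out 1 array (0.06 to 0.107); it held without sham replicate 3 and without denervated replicate 3.

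Among other transcription factors that mark position or mesenchyme in the lower body, 4 had changes past 1 on the log2 scale. Of 48 measured, 36 of them brighter than the array medians, 16 fell and 5 rose (median -0.06), beside 16.9% and 11.9% of all genes and 24.8% and 14.2% of brighter genes. Tbx5, a T-box factor of heart and forelimb that is also read in bladder, had 9.55 to 9.91 in sham and 7.53 to 9.56 in denervated arrays. Only denervated replicate 2, at 9.56, reached the sham range, and the change was -1.42 ± 0.27 (limma adjusted p = 0.00180). Tbx20, a related factor, changed by -1.22 ± 0.23 (limma adjusted p = 0.00164) and Gata5, a zinc finger factor of heart and gut, by -1.07 ± 0.16 (limma adjusted p = 0.000424). Prrx1, a homeobox factor of limb mesenchyme and fibroblasts, rose by 1.03 ± 0.17 (limma adjusted p = 0.000689), from 9.01 to 9.25 in sham to 9.46 to 10.69 in denervated arrays. Neither Tbx20, Gata5 nor Prrx1 had overlapping groups.

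Of 17 measured genes of the retinoid pathway, 13 of them brighter than the array medians, 5 fell and 2 rose (median -0.14), not far from the same shares. Aldh1a3, an enzyme that makes retinoic acid, rose by 1.17 ± 0.15 (limma adjusted p = 0.000207), with 6.67 to 6.98 in sham and 7.34 to 8.43 in denervated arrays. The receptors Rxrg (-1.08 ± 0.18, limma adjusted p = 0.000779) and Rarb (-0.49 ± 0.09, limma adjusted p = 0.00152), the latter a classic retinoic acid target, fell. So did Crabp2 (-0.46 ± 0.07, limma adjusted p = 0.000738), which carries retinoic acid to the nucleus. The 3 remaining called members, named to complete the count, were the receptors Rara (0.27) and Rarg (-0.31) and the retinol dehydrogenase Rdh10 (-0.30), so both receptors and enzymes were called in both directions.

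Markers of several cell types moved with the groups in the same arrays. Whole bladder RNA was measured, so fewer cells of a type and less RNA per cell cannot be told apart. The counts stand beside 16.9% lower and 11.9% higher over all genes, and 24.8% and 14.2% over brighter genes. Smooth muscle genes fell in 8 of 11 and rose in 1, and their summed signal was 15.62 to 15.78 in sham and 15.11 to 15.60 in denervated arrays. Urothelial genes fell in 9 of 10, with 14.89 to 15.09 in sham and 14.17 to 14.50 in denervated arrays. Schwann cell genes fell in 6 of 8, with 10.97 to 11.23 and 9.46 to 10.27. In all 3 of these lists replicate 2 was the highest denervated array, and the groups did not overlap.

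Fibroblast genes rose in 7 of 12 (14.91 to 15.17 in sham, 15.12 to 15.58 in denervated arrays) and endothelial genes in 5 of 8 (11.38 to 11.51, 11.68 to 12.00). Macrophage genes rose in all 10 measured (12.04 to 12.16, 13.25 to 14.46). Replicate 2 was the lowest denervated array in these 3 lists and in the proliferation list. RMA values have no true 0, so no marker is at 0; the lowest sham mean in the macrophage list was that of Fcgr3a (5.61) and in the fibroblast list that of Fap (5.62). The part of these shifts in the Hox changes was not tested.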

How the data were processed

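Total RNA of 12 bladder samples was read on 1 Affymetrix array each, and groups and replicate numbers come from the sample titles. The log2 values deposited by the authors are RMA values (background-corrected, quantile-normalized, summarised per probe set) from Affymetrix Expression Console 1.4.1.46, per the submitters' processing notes. RMA makes array distributions alike and compresses changes of dim probe sets. The array's genome build is not given in the sources used here, nor is any batch.

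Of 36685 probe sets, 18511 had 1 gene symbol and 575 several; the probe set with the highest mean over all arrays stood for each of 18166 genes. Denervated and sham arrays (6 each) were compared with limma 3.58.1 (lmFit, eBayes) in R 4.3.3, and p-values were adjusted over all 18166 genes by the Benjamini-Hochberg method at 0.05. The pairs of paralogs were compared by an exact permutation test over arrays. Both were tested on simulated data. Promoters and microRNAs are RefSeq's in GRCr8, and the motif search ran in python 3.11.15. The number of arrays limits the precision.

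Members, gene lists, the paralog comparison and the neighbouring genes were chosen with earlier results of these data known. Named genes are all Hox genes called, the brightest of each cluster, every Pbx, Meis and Pknox gene, and up to 4 called genes of each list with the largest change. The alternatives were other scalings, filters on dim probe sets, other tests, other treatment of probe sets, a replicate block and leaving out each array. The 13 lists are small and overlap in function, and no test of a list as a whole was made.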

Additional observations from a re-analysis of the deposited data

Results flagged for a closer look

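Hoxa2 in denervated replicate 3 read 6.94 on the log2 scale, whereas the other 5 denervated arrays read 6.31 to 6.51. Hoxd3 in sham replicate 5 read 5.61, against 5.90 to 5.95 in the other 5 sham arrays. Each lay beyond Dixon's 95% critical value for 6 samples. Among 64 groups of 6 values tested in this way 2 were beyond it, and chance gives about 1 in 20. Neither gene was called.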

How the results depend on the processing

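None of the Hox genes called, the other genes named from the lists or the counts changed direction under those of the 23 alternatives that gave them a value. Restricting the genes to those above the median gene left 1 Hox gene higher and 8 lower and moved the median Hox change to -0.34, since fewer and brighter Hox genes, none of cluster c, are then tested. The exact rank-sum test called 4058 genes in place of 5216, with 2 Hox genes higher and 7 lower, losing Hoxc4, Hoxc9 and Hoxd10. Testing against a 1.2-fold change called 1252 genes in place of 5216 and 1 Hox gene in each direction, Hoxc8 and Hoxa13. Leaving out 1 array at a time gave 4374 to 6273 genes called, 3 to 4 Hox genes higher, 6 to 9 lower, and a median Hox change of -0.07 to -0.03. The replicate numbers do not pair the arrays (correlation of deviations -0.112 to 0.101), and the replicate block gave 4460 genes called, 3 Hox genes higher and 8 lower, without Hoxc4. Another quantile normalization kept all 9 pairs of paralogs that differed; this and leaving out arrays (4 to 9 kept) were added for the pairs after seeing the data. Denervated replicate 2 had the strongest influence on the number of genes called, 6273 without it. Without detection calls, the values of the dim cluster c probe sets are the least certain.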

Other observations

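Genes just outside the clusters were read for comparison, 3 measured protein-coding neighbours on each side in RefSeq's order. Of these 24 genes 1 rose and 5 fell, with a median change of -0.07 on the log2 scale, beside the 11.9% and 16.9% of all genes called in each direction. Next to cluster a, Skap2, an adaptor protein of immune cells, rose by 0.59 ± 0.10 (limma adjusted p = 0.000755), and Hibadh, an enzyme of valine breakdown, changed by -0.57 ± 0.09 (limma adjusted p = 0.000666). Evx1, the homeobox gene that borders Hoxa13, was not called (-0.13), nor was Evx2, which borders Hoxd13 (0.01). Beside cluster c, Calcoco1, an autophagy receptor, changed by -0.54 ± 0.12 (limma adjusted p = 0.00509), opposite in sign to the cluster c genes that rose. Snx11 and Nfe2l1 beside cluster b fell by 0.19 and 0.18 on the log2 scale and Atp5mc3 beside cluster d by 0.31.

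By paralog number alone the pattern was weak. Of 10 genes numbered 1 to 4, 2 rose and 1 fell. Of 9 numbered 5 to 8, 1 rose and 2 fell, and of 12 numbered 9 to 13, 1 rose and 5 fell. Over all genes 11.9% rose and 16.9% fell, and over brighter genes 14.2% and 24.8%. The bands also differed in brightness, with 7 of 10, 7 of 9 and 5 of 12 genes above the mean sham array median. Across the 31 genes, which are not independent replicates, Spearman's rho between number and change was -0.23.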
